A study of Mus musculus with 6 samples.

Results

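The colony-stimulating factors and their receptors were read from the gene-level RNA-Seq counts of hypoxic heart cells treated with vehicle or β-sitosterol. The members were the rows of the count table with the gene symbols Csf1, Csf2, Csf3, Csf1r, Csf2ra, Csf2rb, Csf2rb2 and Csf3r, 8 of the 57010 genes listed. All 3 ligand genes were lower in the β-sitosterol libraries, Csf1 by 6.68-fold and Csf2 and Csf3 almost to the end of their counts. The receptor genes did not move as a block, since Csf1r was 2.91-fold higher, Csf3r 4.24-fold lower and Csf2rb 2.12-fold lower, while Csf2ra and Csf2rb2 stayed within 2-fold.

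The cells were primary neonatal mouse cardiomyocytes (NMCMs), taken from the hearts of newborn C57BL/6 mice as the fraction that did not adhere to the dish. All libraries came from cells under hypoxia (HO), and they formed the groups HO + Vehicle (V1, V2 and V3) and HO + β-SITO (T4, T5 and T6), where β-SITO is β-sitosterol, a plant sterol. The comparison addressed how β-SITO changes the transcriptome of hypoxic NMCMs. No normoxic library was used here, so each difference is between treatments under hypoxia, and the dose and time of β-SITO for these libraries were not given in the sources used here. No source states that the libraries of a group came from separate cultures, so the p-values measure only the spread between these libraries, which may be technical. The library names of all β-SITO samples carry a suffix that the vehicle names lack, so a separate preparation of the groups cannot be told apart from the treatment.

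Total counts per library were 16694734 to 17082129 in HO + Vehicle and 16962152 to 18460522 in HO + β-SITO. A gene was called a differentially expressed gene (DEG) at an adjusted p under 0.05 in edgeR's quasi-likelihood test and a change of more than 2-fold. Of 14799 genes tested, 22.8% were DEGs, 10.1% lower and 12.8% higher in HO + β-SITO. The cardiomyocyte label was checked against 12 marker genes, which were all measured and summed to 6387 to 7399 CPM (counts scaled to the library's total and composition) in HO + Vehicle and 5804 to 9891 CPM in HO + β-SITO. The 10 fibroblast markers were also measured and summed to 30124 to 31360 CPM and 45194 to 46322 CPM, so the libraries held RNA of more than 1 cell type. T4 stood apart from T5 and T6, with the lowest cardiomyocyte sum (5804 against 9758 and 9891 CPM) and the highest macrophage sum (3578 against 2934 and 2909 CPM).

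Colony-stimulating factors are secreted proteins that keep myeloid cells alive and direct their growth and maturation. CSF1 (M-CSF) acts on macrophages and their precursors through CSF1R, a receptor tyrosine kinase that also binds IL-34. CSF2 (GM-CSF) acts through an α chain, the product of Csf2ra, and the common β chain, the product of Csf2rb, which IL-3 and IL-5 share, while CSF3 (G-CSF) acts on neutrophils and their precursors through CSF3R. The cytokine receptors of CSF2 and CSF3 have no kinase of their own and signal through JAK2 and STAT proteins. In the injured heart, stromal cells and cardiomyocytes can make these factors, and resident and recruited macrophages carry CSF1R.

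Csf1, on chromosome 3 at 107648364 to 107667785 on the minus strand (GRCm39), encodes the macrophage factor. It was measured at 1791, 1732 and 1759 CPM in V1, V2 and V3 and at 283, 243 and 264 CPM in T4, T5 and T6. Every vehicle library lay far above every β-SITO library, and the groups were each tight. The means were 1761 ± 29.5 CPM and 263 ± 20.2 CPM (SD, n = 3 each), and the log2 fold change was -2.74 ± 0.069 (SE; edgeR quasi-likelihood test, Benjamini-Hochberg adjusted p = 1.73e-14). Only 3.42% of the genes tested fell as far as Csf1 or further. Even after the fall, Csf1 stayed the most abundant of the 8 genes per length of exon.

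Csf3, on chromosome 11 at 98592089 to 98594455 on the plus strand, encodes the neutrophil factor. Its raw counts were 219, 258 and 233 in the vehicle libraries and 2, 1 and 1 in the β-SITO libraries. The transcript was thus well sampled in HO + Vehicle and close to the end of the count scale in every β-SITO library. The group means were 14.8 ± 1.21 CPM and 0.0703 ± 0.0282 CPM (SD, n = 3 each), with a log2 fold change of -7.57 ± 0.25 (edgeR quasi-likelihood test, Benjamini-Hochberg adjusted p = 5.48e-13). From the summed counts, 710 against 4, the level was 209 times lower, with an exact 95% interval of 81.3 to 769.7 times that covers counting error only. Ordered from the lowest fold change, Csf3 was number 64 of the 14799 genes tested.

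Csf2, on the same chromosome at 54138097 to 54140493 on the minus strand, encodes GM-CSF and was the rarest of the ligands. Its raw counts were 57, 48 and 47 in HO + Vehicle and 0, 0 and 1 in T4, T5 and T6. A single count was thus all that the β-SITO libraries held for this gene. The means were 3.17 ± 0.372 CPM and 0.0174 ± 0.0301 CPM (SD, n = 3 each), and the fitted log2 fold change was -7.00 ± 0.51 (edgeR quasi-likelihood test, Benjamini-Hochberg adjusted p = 7.68e-09). The summed counts of 152 against 1 give a ratio of 179 with an exact 95% counting interval of 31.7 to 7120, so its size is known only loosely. Without T6, the library with that count, the fitted log2 value was -8.75, and with limma-voom on all libraries it was -6.38. Csf2 and Csf3 passed the filter on low counts only through the vehicle group, where they were high, so their fall adds nothing as a count of members. Csf2 also overlaps Gm12223 on the opposite strand, a gene with at most 8 counts in a library, and the strand setting of the counting was not given in the sources used here.

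**Figure D1:**
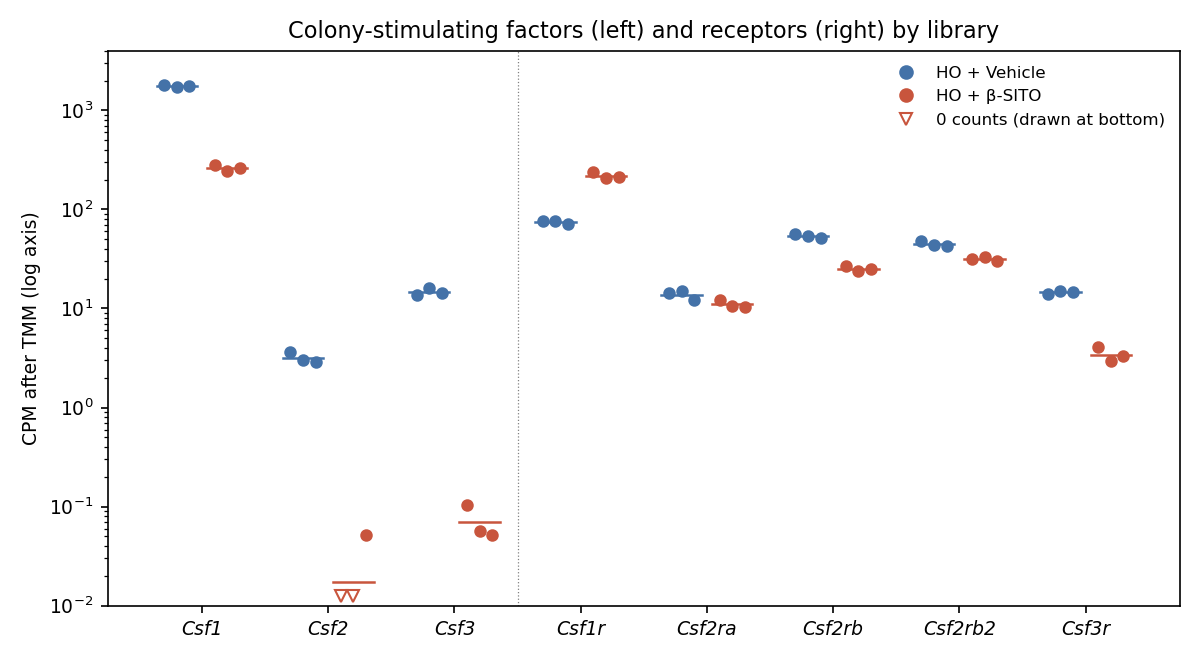
Level of each gene in every library, in CPM after TMM scaling on a log axis, with ligands left and receptors right of the dotted line. Points are libraries, horizontal bars are group means, and open triangles at the bottom mark libraries with 0 counts. All 3 ligands lay lower in the 3 HO + β-SITO libraries, Csf1r lay higher, and Csf2ra was the gene whose groups overlapped.

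The mRNAs of Csf2 and Csf3 are textbook cases of transcripts with AU-rich elements, in which repeats of the pentamer ATTTA in the 3′ untranslated region mark an mRNA for decay. The densest 30-base stretch of each ligand is shown so that Csf1, the ligand that stayed abundant, can be read beside Csf2 and Csf3. They were read 5′ to 3′ on the transcribed strand from the GENCODE vM21 transcripts (GRCm38), with each ATTTA in capitals. The stretches lie at chr11:54247325-54247354 (minus strand) for Csf2, chr11:98702984-98703013 (plus strand) for Csf3 and chr3:107741103-107741132 (minus strand) for Csf1.
Csf2: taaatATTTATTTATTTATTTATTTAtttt
Csf3: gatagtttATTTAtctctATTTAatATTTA
Csf1: taaggtcATTTAaatatctATTTAaaaaat

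The Csf2 stretch holds 5 overlapping pentamers, that of Csf3 holds 3 and that of Csf1 holds 2. Over the whole 3′ untranslated region there were 9 pentamers in 317 bases for Csf2, 6 in 669 bases for Csf3 and 4 in 2111 bases for Csf1. Counted per kilobase, 0.063% of 20753 genes with such a region were as dense as Csf2 or denser, 1.61% as dense as Csf3 and 37.9% as dense as Csf1, which was thus not unusual and close to the receptor Csf1r (39.5%). The longer nonamer TTATTTATT occurred 4 times in Csf2 and in neither of the other ligands, against 7.65% of all genes with 1 or more. Among the receptors, Csf1r had 3 pentamers in 1669 bases and Csf2ra, Csf2rb, Csf2rb2 and Csf3r had none, whereas 65.4% of all genes had at least 1. A match describes these letters only.

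Of the receptors, Csf1r, on chromosome 18 at 61233670 to 61265221 on the plus strand, was the gene that rose. It was measured at 77.2, 77.2 and 71.9 CPM in the vehicle libraries and at 239, 208 and 211 CPM in T4, T5 and T6. The lowest β-SITO library was well above the highest vehicle library. The means were 75.4 ± 3.07 CPM and 219 ± 17.2 CPM (SD, n = 3 each), and the log2 fold change was 1.54 ± 0.067 (edgeR quasi-likelihood test, Benjamini-Hochberg adjusted p = 1.62e-11). A rise as large or larger was seen in 6.95% of the genes tested. The gene overlaps Hmgxb3 on the opposite strand, which had at most 730 counts in a library against 1160 to 4653 for Csf1r. Of 20 macrophage markers listed and tested, 12 were higher DEGs and 5 lower, beside 12.8% and 10.1% of all genes tested. The summed level of these markers was 1471 to 1611 CPM in HO + Vehicle and 2909 to 3578 CPM in HO + β-SITO. Fewer or more cells of a type and less or more RNA per cell cannot be told apart in bulk libraries, and the part of macrophage number in the Csf1r result was not tested. Without T4, the library with the highest macrophage sum, the log2 fold change of Csf1r was 1.47.

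The ligand and its receptor thus moved in opposite directions, which is plainest per length of exon. Csf1 was at 333 ± 5.58 CPM per kilobase and Csf1r at 13.1 ± 0.531 CPM per kilobase in HO + Vehicle (SD, n = 3). In HO + β-SITO the levels were 49.9 ± 3.83 and 38.0 ± 2.97 CPM per kilobase. The ratio of Csf1 to Csf1r was 25.4, 24.5 and 26.7 in V1, V2 and V3 and 1.30, 1.27 and 1.37 in T4, T5 and T6. Ligand mRNA therefore stood far above receptor mRNA in every vehicle library and only slightly above it in every β-SITO library.

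**Figure D2:**
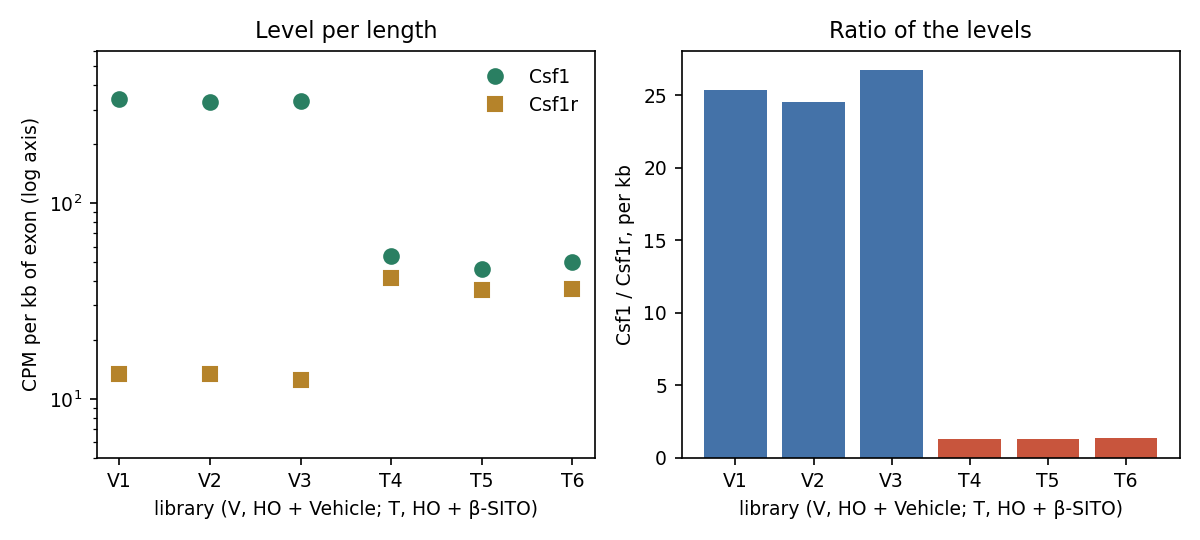
Csf1 and Csf1r in each library as CPM per kilobase of exon on a log axis (left), and the ratio of the 2 levels as bars from 0 (right). The ratio lay between 24.5 and 26.7 in the vehicle libraries and between 1.27 and 1.37 in the β-SITO libraries.

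Csf3r, on chromosome 4 at 125918343 to 125938233 on the plus strand, fell together with its ligand. Its levels were 14.0, 15.2 and 14.6 CPM in HO + Vehicle and 4.06, 2.92 and 3.28 CPM in HO + β-SITO. The groups were clearly apart, with every vehicle library above the highest β-SITO library. The means were 14.6 ± 0.606 CPM and 3.42 ± 0.581 CPM (SD, n = 3 each), and the log2 fold change was -2.08 ± 0.13 (edgeR quasi-likelihood test, Benjamini-Hochberg adjusted p = 1.52e-09). Neutrophil markers were few. Of 14 listed, 3 passed the filter on low counts. These were Camp, Mmp9 and Mmp8, all lower DEGs, as were 10.1% of all genes tested. Their log2 fold changes were -3.79, -2.65 and -1.87. Camp passed the filter through the vehicle group alone. Markers under the filter did not all go that way, since Prtn3 had 2 counts in all in HO + Vehicle and 30 in HO + β-SITO, Ngp had 6 and 20, S100a9 had 18 and 26 and S100a8 had 19 and 23, and without the filter the list had 3 lower DEGs and 1 higher. The defining genes Ly6g and Retnlg had no count in any library and Cxcr2 had 1 in all, and the list summed to 14.5 to 16.0 CPM in HO + Vehicle and 3.75 to 6.78 CPM in HO + β-SITO. The part of neutrophils in the Csf3r result was not tested.

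Csf2rb, on chromosome 15 at 78209952 to 78238047 on the plus strand, encodes the common β chain. Its levels were 56.0, 53.9 and 51.1 CPM in the vehicle libraries and 26.8, 23.9 and 25.1 CPM in the β-SITO libraries. No β-SITO library reached the lowest vehicle library. The means were 53.7 ± 2.49 CPM and 25.3 ± 1.45 CPM (SD, n = 3 each), and the log2 fold change was -1.09 ± 0.072 (edgeR quasi-likelihood test, Benjamini-Hochberg adjusted p = 2.74e-09). The change sat just past the 2-fold limit, at -0.94 with either upper quartile scaling or library size alone, and a test against 2-fold itself (edgeR's glmTreat) gave an adjusted p of 0.219. The fall passed the p threshold but was not established as more than 2-fold.

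Csf2rb2, the neighbouring copy on the minus strand at 78166707 to 78189921, encodes a β chain found in mice that serves IL-3. Its levels were 47.9, 43.3 and 42.8 CPM in HO + Vehicle and 31.7, 33.1 and 30.5 CPM in HO + β-SITO. The groups did not overlap, but the drop was smaller than that of Csf2rb. The log2 fold change was -0.49 ± 0.072 (edgeR quasi-likelihood test, Benjamini-Hochberg adjusted p = 2.25e-05), which passed the p threshold and not the fold limit. The copies share sequence: 18.4% of the 50-base stretches of Csf2rb and 3.47% of its 150-base stretches also occurred in a Csf2rb2 transcript, so reads could be split between them.

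The balance between the 2 β chains was compared directly within each library. The log2 ratio of Csf2rb2 to Csf2rb counts was -0.22, -0.32 and -0.25 in V1, V2 and V3 and 0.24, 0.47 and 0.28 in T4, T5 and T6. Csf2rb had the larger raw count in every vehicle library and Csf2rb2 in every β-SITO library. The means were -0.27 ± 0.047 and 0.33 ± 0.12 (SD, n = 3 each), and the difference of 0.60 had p = 0.1 in a two-sided exact permutation test, the smallest p that 3 against 3 allows. Which copy is the larger depends on length. Per kilobase of the union of exons, Csf2rb2 was above Csf2rb in V1, V2 and V3 too (10.1, 9.13 and 9.04 against 7.70, 7.41 and 7.02 CPM per kilobase).

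Csf2ra, on chromosome 19 at 61212395 to 61216867 on the minus strand, encodes the α chain that gives the receptor its specificity for GM-CSF. It was measured at 14.3, 14.9 and 12.1 CPM in the vehicle libraries and at 12.2, 10.5 and 10.5 CPM in the β-SITO libraries. T4 lay above V3, so this was the member whose groups overlapped. The log2 fold change was -0.31 ± 0.11 (edgeR quasi-likelihood test, Benjamini-Hochberg adjusted p = 0.0198), under the 2-fold limit. That p did not hold across settings, at 0.0513 with DESeq2, 0.200 with library size alone and 0.0791, 0.0945, 0.10 and 0.0845 without V1, V2, T5 and T6. A change of Csf2ra was therefore not resolved from the spread between libraries.

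**Figure D3:**
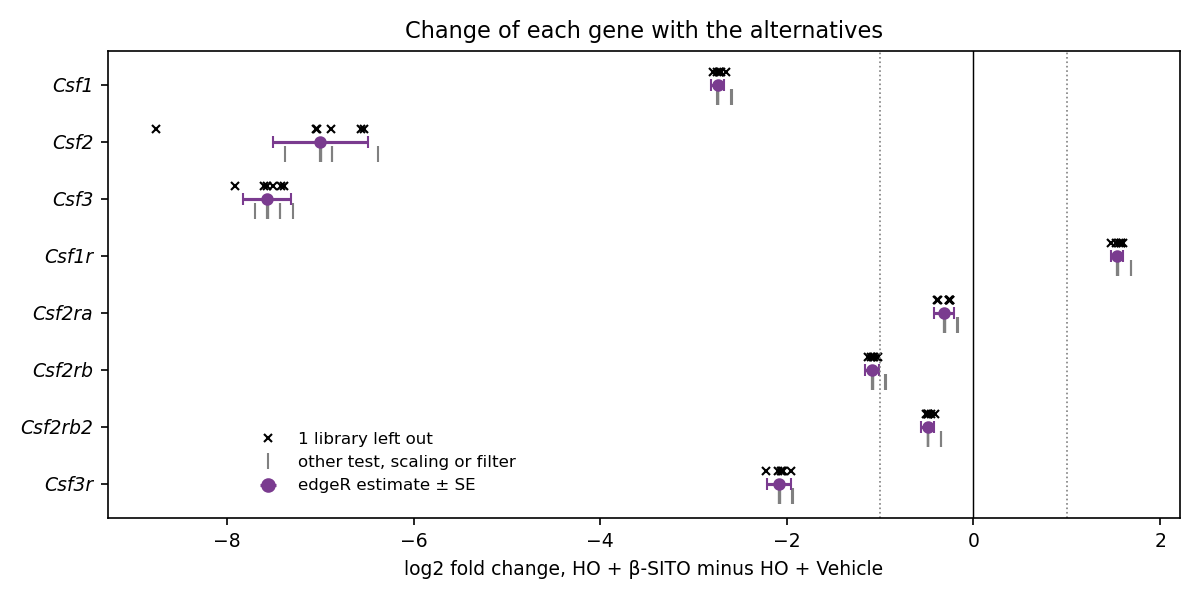
Log2 fold change of each gene, HO + β-SITO minus HO + Vehicle, as the edgeR estimate with its SE (purple), with crosses above for the fits that leave out 1 library and grey ticks below for other tests, scalings and filters. Dotted lines mark a 2-fold change. Every gene kept its direction, Csf2rb and its alternatives straddled the 2-fold line, and Csf2 spread the widest, from -8.75 to -6.38.

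Counted over the members, 5 of 8 were lower DEGs and 1 was a higher DEG, beside 10.1% and 12.8% of all genes tested. All 8 passed the filter on low counts, Csf2 and Csf3 through the vehicle group alone. On the adjusted p alone, 66.8% of all genes tested passed, and the members divided into 7 that fell (33.8% of all genes) and 1 that rose (33.0%). Csf2ra is among the 7, although its p did not hold across settings. Of the 8, 7 had groups that did not overlap (70.5% of all genes). The median log2 fold change of the 8 was -1.59, against -0.01 over all genes tested. Both the count of lower DEGs and this median include Csf2 and Csf3, whose calls add nothing to them. Over the 5 receptors alone the median was -0.49.

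Per kilobase of exon, the order in HO + Vehicle after Csf1 and Csf1r was Csf3 (10.5 ± 0.859 CPM per kilobase), Csf2rb2 (9.43 ± 0.599), Csf2rb (7.38 ± 0.342), Csf2ra (4.80 ± 0.505), Csf3r (4.04 ± 0.168) and Csf2 (3.97 ± 0.465; SD, n = 3). Csf3 and Csf2rb2 could not be told apart within the spread of their libraries, nor could Csf3r and Csf2. In HO + β-SITO the order was Csf2rb2 (6.70 ± 0.275), Csf2ra (3.86 ± 0.351), Csf2rb (3.47 ± 0.199), Csf3r (0.948 ± 0.161), Csf3 (0.0498 ± 0.0199) and Csf2 (0.0217 ± 0.0376), with Csf2ra and Csf2rb overlapping and Csf3 and Csf2 as well. The order of the β chains in HO + Vehicle depended on the length used, since the longest coding transcript put Csf2rb at 11.0 and Csf2rb2 at 9.43 CPM per kilobase. On the union of exons, Csf3 moved between the groups from the third place to the seventh.

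The stretch before the start of transcription was examined for short motifs of factors known to drive these genes. A 250-base window before a RefSeq start (GRCm38.p6) was used for 5 of the 8 members, namely Csf1, Csf2, Csf2ra, Csf2rb2 and Csf3r. Csf1r was left out of this search, and no window was available for Csf3 and Csf2rb. The windows of Csf1 and Csf3r are shown because both fell and both hold a match, on the other strand (in capitals), to a short form of the NF-κB site, which was searched as GGG, any 3 bases and TTCC. They are read 5′ to 3′ on the strand of the gene, at chr3:107760470-107760719 (minus strand) for Csf1 and chr4:126024409-126024549 (plus strand) for Csf3r, the latter ending where the earlier annotated start begins.
Csf1: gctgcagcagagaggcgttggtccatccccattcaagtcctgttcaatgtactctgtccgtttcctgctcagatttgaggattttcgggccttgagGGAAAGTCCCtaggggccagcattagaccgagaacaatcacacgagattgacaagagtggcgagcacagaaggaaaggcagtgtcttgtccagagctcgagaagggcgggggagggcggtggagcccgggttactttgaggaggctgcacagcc
Csf3r: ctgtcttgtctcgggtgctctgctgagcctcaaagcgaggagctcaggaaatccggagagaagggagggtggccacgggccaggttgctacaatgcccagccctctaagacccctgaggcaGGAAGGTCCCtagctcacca

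The NF-κB match lay at -154 to -145 from the start of Csf1 and at -129 to -120 from that of Csf3r, and 4.65% of all 32851 windows hold one on either strand. The windows of Csf2, Csf2ra and Csf2rb2 held none, although Csf2 and Csf2rb2 also fell. The GAGGAA core bound by PU.1 occurred in the windows of Csf2ra, Csf2rb2 and Csf3r, beside 23.3% of all windows. The Ensembl starts of Csf3r and Csf2ra lie 109 and 11 bases before the RefSeq starts, so the match of Csf3r (-86 to -81) and those of Csf2ra (-14 to -9 and -8 to -3) lie wholly or partly inside the Ensembl transcript. Csf2rb2 also held a STAT motif TTCNNNGAA at -15 to -7 (7.02% of all windows), and Csf2 held a C/EBP motif TTNNGCAA at -145 to -138 (9.56%). The RefSeq start of Csf2 lies 232 bases before the Ensembl start, so its window does not reach the region next to the latter. The CK-1 and AP-1 motifs and the TATA box were searched as well, and none of them had a match in the 5 windows. Over all windows, 0.755%, 6.75% and 12.4% held these motifs, in that order. A match is a run of letters and no evidence of binding.

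Other ligands and receptors of the same families moved unevenly. Of 9 relatives, 5 were tested, with 1 lower DEG, 1 higher DEG and a median log2 fold change of -0.17. Beside them, 10.1% of all genes tested were lower and 12.8% higher DEGs. Il34, the second ligand of CSF1R, was at 6.39 ± 1.15 CPM in HO + Vehicle and 3.06 ± 0.169 CPM in HO + β-SITO (SD, n = 3). Its log2 fold change of -1.06 lost the DEG call without V1, V2 or T5, with upper quartile scaling, with library size alone and with glmTreat. Kit, the receptor for stem cell factor and the closest kin of Csf1r in this list, rose from 14.0 ± 2.92 CPM to 51.9 ± 3.61 CPM, or by 1.89 on the log2 scale. Its ligand gene Kitl (log2 fold change 0.72) and the IL-3 α chain Il3ra (-0.68) passed the p threshold and not the fold limit. Flt3l, the ligand of FLT3, had a log2 fold change of -0.17 and an adjusted p of 0.495 (edgeR quasi-likelihood test, Benjamini-Hochberg). Il3 and Il5ra had no count in any library, Il5 had 1 and Flt3 had 2, so they were not tested.

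Below the receptors, 30 genes for JAK-STAT and adaptor signalling were tested, of which 5 were lower DEGs, 2 higher DEGs and 23 neither (median log2 fold change -0.10). Over all genes tested, 22.8% were DEGs in either direction, which is close to the share in this list. Fgr, a lower DEG, passed the filter on low counts through the vehicle group, where it was high. Its call adds nothing to the count of lower DEGs. Jak2, the kinase attached to the GM-CSF and IL-3 receptors, fell from 397 ± 25.1 CPM to 35.9 ± 1.75 CPM (SD, n = 3) and had a log2 fold change of -3.47. Tyrobp, which encodes an adaptor of myeloid receptors, and Gab3, which encodes an adaptor below CSF1R, rose by 1.27 and 1.47 on the log2 scale.

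Of the negative regulators of the receptors 13 were tested, with 3 lower DEGs, 2 higher DEGs and a median of 0.24. The shares over all genes tested were 10.1% lower and 12.8% higher DEGs. Socs1 and Socs3, which encode inhibitors of JAK signalling that are themselves induced by cytokines, fell by 3.24 and 1.78 on the log2 scale. Socs3, the inhibitor known to restrain the G-CSF receptor, was at 127.7 ± 6.99 CPM and 37.2 ± 0.933 CPM (SD, n = 3). The adaptor gene Dok1 fell by 1.34, whereas its relative Dok2 rose by 1.71 and Inpp5d, which encodes the lipid phosphatase SHIP1, rose by 1.93.

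Of 15 transcription factors of myeloid cells, 12 were tested, with 4 lower DEGs, 3 higher DEGs and a median of -0.49. Among all genes tested, 10.1% were lower and 12.8% higher DEGs. Cebpa, a factor of granulocyte and monocyte precursors, rose from 3.18 ± 0.826 CPM to 30.9 ± 0.284 CPM (SD, n = 3), or by 3.28 on the log2 scale. Maf, a factor of mature macrophages, rose by 1.59 on the log2 scale. Tfec, Cebpd and Runx1 fell by 1.36, 1.32 and 1.19 on the log2 scale.

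Genes for inducers of the colony-stimulating factors, meaning cytokines and receptors known to switch the ligand genes on, were mostly lower among those tested. Of 17 listed, 13 were tested, and 9 were lower DEGs and none was a higher DEG, with a median of -1.30. Over all genes tested, 10.1% were lower and 12.8% higher DEGs. Of those under the filter on low counts, Il1rl1, the receptor gene for IL-33, had 8 counts in all in HO + Vehicle and 31 in HO + β-SITO, and without the filter the list had 10 lower DEGs and 1 higher. Il1b, the gene of interleukin-1β, had 4, 1 and 2 counts in T4, T5 and T6 against a vehicle mean of 210.6 ± 12.0 CPM (SD, n = 3), with a fitted log2 fold change of -10.65. Il1a, its sister cytokine, had 2, 5 and 6 counts in the β-SITO libraries and a fitted log2 fold change of -8.62. Tlr2, a receptor for bacterial lipoproteins, fell from 969 ± 55.8 CPM to 29.8 ± 4.49 CPM. Il1a and Il1b, like Csf2 and Csf3, passed the filter on low counts through the vehicle group, so their calls add nothing to the count of lower DEGs.

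Among 14 genes whose products govern the decay or stability of AU-rich mRNAs, 2 were lower DEGs and 12 were neither (median -0.18). The share of lower DEGs over all genes tested was 10.1%. Zc3h12a, the gene of the ribonuclease regnase-1, fell from 57.4 ± 1.01 CPM to 6.65 ± 0.765 CPM (SD, n = 3), with a log2 fold change of -3.10, and Zc3h12c fell by 1.43 on the log2 scale.

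**Figure D4:**
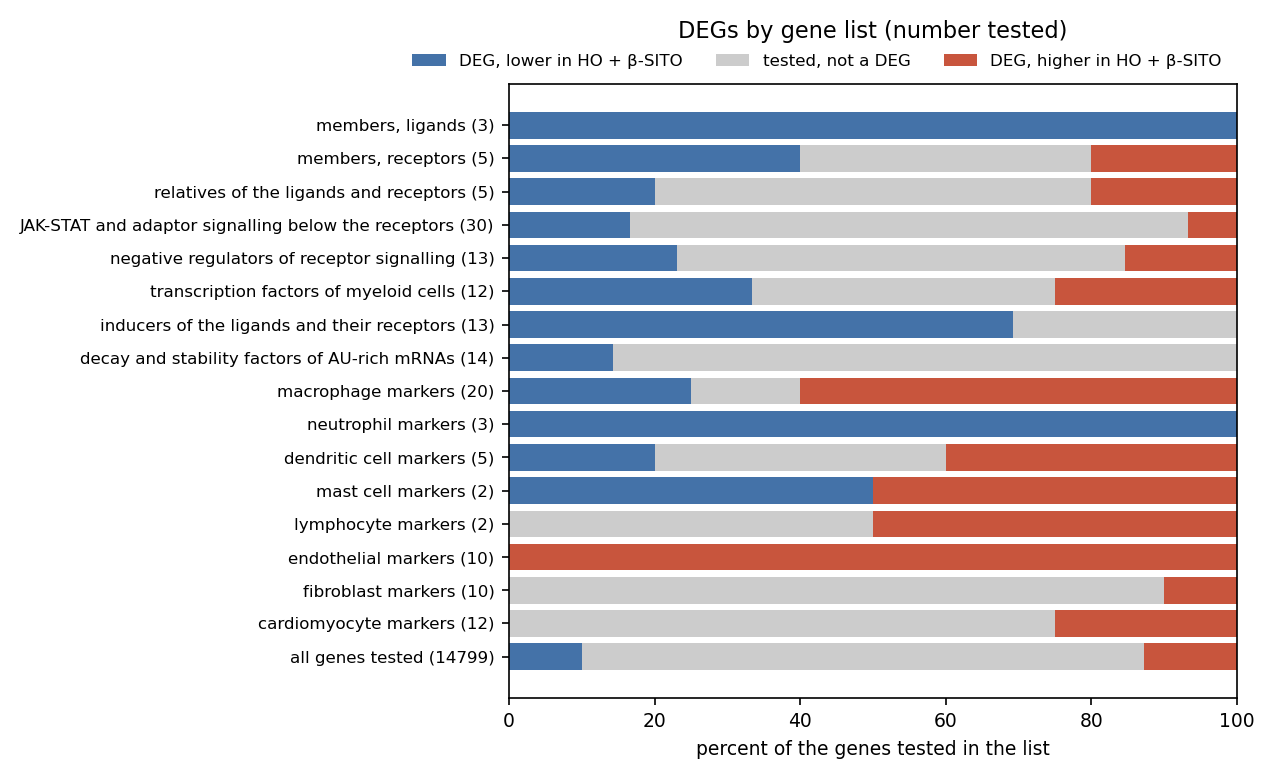
Share of the genes tested in each list that were lower DEGs (blue), higher DEGs (red) or neither (grey) in HO + β-SITO, with the number tested in brackets and all 14799 genes tested in the lowest bar. The 3 ligands and 9 of 13 inducers were lower DEGs, while 12 of 20 macrophage markers and 10 of 10 endothelial markers were higher DEGs. Among these, Csf2, Csf3, Il1a, Il1b and Cd163 passed the filter on low counts only through the group where they were high.

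Markers of the cell types that the cultures could hold moved in some lists and not in others. For comparison, 10.1% of all genes tested were lower and 12.8% higher DEGs. Within the macrophage list, Cd163, a scavenger receptor of resident macrophages, had 0, 0 and 2 counts in V1, V2 and V3 and 32, 36 and 32 in T4, T5 and T6, Mrc1 rose from 11.8 ± 1.06 CPM to 325 ± 51.5 CPM (SD, n = 3) and Cx3cr1 rose by 3.86 on the log2 scale. Marco, Fcgr1 and Timd4 fell by 6.16, 2.18 and 1.78, so the list did not move as 1 unit. All 10 endothelial markers were higher DEGs, led by Vwf, Emcn and Esam (log2 fold changes 4.09, 2.51 and 2.43), and their summed level was 220 to 253 CPM in HO + Vehicle and 899 to 935 CPM in HO + β-SITO. One of 10 fibroblast markers (Dpt) and 3 of 12 cardiomyocyte markers (Myl7, Myh7 and Nppa) were higher DEGs, with none lower and the other 9 of each list neither, and the summed cardiomyocyte levels of the groups overlapped. Of the dendritic cell markers 5 of 10 were tested, and Clec9a and Clec10a were higher and H2-Ab1 lower DEGs, with summed levels of 27.3 to 28.9 CPM and 23.8 to 28.4 CPM that overlapped. Mast cell markers summed to 25.0 to 26.5 CPM and 23.0 to 25.2 CPM, again overlapping, with Hdc lower and Mcpt4 higher, and lymphocyte markers, with Cd4 higher, summed to 1.24 to 1.89 CPM and 3.65 to 4.42 CPM. Cd163, Clec9a, Clec10a and Cd4 passed the filter on low counts through the β-SITO group, where they were high. Hdc and Timd4 passed it through the vehicle group, where they were high. The calls of these genes thus add nothing to the counts of their lists. The part of the makeup of the cultures in the changes of the colony-stimulating factor genes was not tested.

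For each member that was a DEG, the 3 genes nearest in pattern were found from the distance between mean-centred log2 CPM over the 6 libraries, as a description only. Nearest to Csf1 were Nfkbia, the gene of an NF-κB inhibitor, Ass1 and Ikbke (distances 0.092, 0.093 and 0.10). Csf1r had Lgals3, Pmp22 and the macrophage marker Cd68 (0.049, 0.11 and 0.12). For Csf3 they were Mmp13, Batf2 and Apol9b (0.21, 0.21 and 0.30), for Csf2 Calcr, Col22a1 and Enpp2 (0.46, 0.48 and 0.51), for Csf2rb Pik3r5, Grn and Slc10a3 (0.052, 0.066 and 0.093) and for Csf3r Ntng2, Fcgr1 and 9930111J21Rik2 (0.14, 0.19 and 0.20). The neighbours of Csf2 and Csf3 lay farther away than those of the other members. With at most 2 counts in a β-SITO library, the positions of Csf2 and Csf3 rest partly on the prior count of 2 used for the log2 CPM. The fitted log2 fold changes of Calcr, Col22a1 and Enpp2 were -8.52, -4.96 and -4.59, against -7.00 for Csf2.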

How the data were processed

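RNA of 6 NMCM libraries was sequenced, 3 per group. The authors deposited raw counts per gene, as whole numbers and not normalized. The submitters' processing notes name FastQC, HISAT2, featureCounts and the build GRCm39, with versions not given in the sources used here. The strand setting of the counting was also not given, and the library kit is named differently in the labels and in the study's methods. Gene coordinates and symbols are those of the deposited table.

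Groups were taken from the sample labels. The counts were filtered with edgeR 4.0.16 (filterByExpr, minimum count 10), scaled by TMM and tested with the quasi-likelihood test (glmQLFit and glmQLFTest, R 4.3.3) with Benjamini-Hochberg adjustment over 14799 genes. DEGs had an adjusted p under 0.05 and a change of more than 2-fold, the definition of the study's methods, where DESeq2 was used. CPM are TMM-scaled, with no pseudocount, and the SE of a log2 fold change is its size divided by the square root of F. The biological coefficient of variation was 6.52%. Alternatives were DESeq2 1.42.0, limma-voom (limma 3.58.1), glmTreat, no fold limit, other scalings, other filters, no mitochondrially encoded genes and leaving out each library.

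The members, gene lists and tests were chosen with earlier results of these data known. The genes named were all members and their relatives, up to 3 DEGs with the largest rise and 3 with the largest fall per list, and the 3 nearest patterns per member called a DEG. Overlapping genes, Il1rl1, Fgr and neutrophil markers with few or no counts fall outside this rule and were chosen after their values were seen. Some genes that the rule names are not reported here.

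On counts simulated from these libraries, with 200 of 14599 genes changed, the test recovered 200 and called 1 other gene. The changed genes all had a mean over 1 CPM and changes larger than 2-fold, and all genes shared the same dispersion. The simulation therefore does not cover changes near 2-fold or genes with almost no counts in a group, such as Csf2 and Csf3. A chi-square test found every pair of libraries of a group to differ by more than sampling noise (1.95 to 9.10 per degree of freedom). T5 and T6 were the closest pair, at 1.95, and the other pairs lay at 4.62 to 9.10. All libraries were kept as separate samples. The excess over sampling noise can be technical, so it does not show that they came from separate cultures. Motifs and untranslated regions were read with Python 3.11.15 and pandas 2.3.3 from RefSeq promoter windows and GENCODE vM21 transcripts, both on GRCm38. They were joined by symbol or gene identifier, not by coordinates, since the counts use GRCm39. Levels per length divide CPM by the union of exons in GENCODE vM21. Counting intervals and ratios cover counting error only.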

Additional observations from a re-analysis of the deposited data

How the results depend on the processing

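All 8 members kept the direction of their fold change under every alternative run, and 5 to 8 of them were DEGs. Leaving out each library in turn left 6 of 8, with log2 fold changes of -2.80 to -2.66 for Csf1, -8.75 to -6.53 for Csf2, -7.91 to -7.39 for Csf3, 1.47 to 1.61 for Csf1r, -0.39 to -0.25 for Csf2ra, -1.13 to -1.02 for Csf2rb, -0.51 to -0.42 for Csf2rb2 and -2.23 to -1.96 for Csf3r. The call of Csf2rb was lost with glmTreat, upper quartile scaling and library size alone. The last 2 shift the median log2 fold change of all genes from -0.01 to 0.14. The number of DEGs over all genes was 3380, 9892 without the fold limit, 2442 with glmTreat and 3467 to 3610 with 1 library left out.

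Without the fold limit, more genes were called by construction: 4 relatives, 20 signalling genes, 11 negative regulators, 12 transcription factors, 10 decay factors, 2 lymphocyte, 9 fibroblast and 7 cardiomyocyte markers. With glmTreat, 1 relative and 4 signalling genes were called. Upper quartile scaling gave 1 relative, 2 lymphocyte and 3 fibroblast markers, and library size alone gave 1, 2 and 4. Without a filter on low counts 3 lymphocyte markers were called, and with a filter at 1 CPM in 3 libraries 1 dendritic cell marker. With 1 library left out, 1 to 2 relatives (1 without V1, V2 or T5), 1 to 2 lymphocyte markers (2 without V1) and 1 to 2 fibroblast markers (2 without V3 or T6) were called. For changes caused by scaling or filters, the cause was not tested. The β chain ratio differed by 0.53 to 0.64 with 1 library left out.

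No paired analysis was possible because the libraries V1 to V3 and T4 to T6 share no replicate number. At this depth Csf2 and Csf3 in HO + β-SITO rest on 1 and 4 counts in all.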
